A study of Equus caballus with 16 samples.

Results

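MiR-21 was followed through the extracellular vesicles of mare follicular fluid (FF-EVs) over 4 seasons. It was found by name, as the row called miR-21 once the species prefix was removed, and is 1 of 686 miRNAs listed, of which 324 had a read in at least 1 library. Follicular fluid was drawn in vivo from follicles of 30 to 35 mm in mares of a single breed, of 8 to 14 years and 400 to 600 kg kept under natural light, after earlier follicles had been ablated by ultrasound guidance to start a new wave. The groups were SAN (spring anovulatory, March, when dominant follicles grow but do not ovulate), SOV (spring ovulatory, April and May), SUM (summer, June to July, ovulatory) and FOV (fall ovulatory, September), with 4 libraries each. A library combined the fluids of 2 to 3 mares, and because the study took more fluids than it had mares, some mares recur between seasons. The sample titles do not name the mares behind a library, so recurring mares could not be modelled and the tests treat libraries as independent.

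MicroRNAs are short RNAs that pair with messenger RNAs through a seed near their 5′ end and lower the output of those messengers, and vesicles carry them between the cells of a follicle. MiR-21 is among the best known of them. It restrains the tumour suppressor PDCD4, and in mouse granulosa cells, the cells that line the follicle and feed the oocyte, it is induced by the ovulatory LH surge and its loss is followed by apoptosis. It is also made by leukocytes, fibroblasts and many other cells, so its presence in a fluid does not name its source.

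The mature sequences are shown so that the seed, bases 2 to 8 in capitals, can be compared between miR-21, 10 of the 16 miRNAs that it is set against below, those with the most detail there, and 2 relatives with the same seed as one of those. They were read from the study's own list of expressed miRNAs, which gives them as DNA letters, 5′ to 3′.
miR-21: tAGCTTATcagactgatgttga
miR-143: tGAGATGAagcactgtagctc
miR-26a: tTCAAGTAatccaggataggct
miR-1: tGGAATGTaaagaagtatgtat
miR-16: tAGCAGCAcgtaaatattggcg
miR-195: tAGCAGCAcagaaatattggc
miR-9a: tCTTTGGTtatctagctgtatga
miR-181b: aACATTCAttgctgtcggtgggt
miR-181a: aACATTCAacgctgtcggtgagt
miR-25: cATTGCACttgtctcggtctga
miR-363: aATTGCACggtatccatctgta
miR-130b: cAGTGCAAtgatgaaagggcat
miR-20a: tAAAGTGCttatagtgcaggtag
Among the 283 names with a sequence in that list, no other carried the miR-21 seed, and none held these letters at another position. MiR-590-5p, which shares this seed in human, had 0 reads in each of the 16 libraries. The values below are therefore those of the only miRNA with this seed among the 282 with a listed sequence that exceeded 10 CPM on average in any season. MiRNAs with reads but without a listed sequence were not searched.

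Small RNA was counted per miRNA, and the deposited unit is TMM-adjusted CPM, in which the reads of a miRNA are divided by a corrected library size. A library held 27131 to 112146 miRNA reads (median 51696), which makes a single read worth 7.91 to 35.6 CPM. No library was a copy of another, since even the closest of 120 pairs had a chi-square of 5.33 per degree of freedom. FOV_1 had been set aside by the study because it grouped with SAN, and it was left out of every test here and kept in an alternative. SOV_4, SUM_1 and SUM_4 also stood apart from the other libraries of their seasons in miRNAs described below. Season differences are given without each of them. Several correlations are given without SOV_4 and SUM_4 together, which keeps SUM_1. Intervals of read shares are exact Clopper-Pearson 95% intervals and cover counting error only, since the libraries carry no molecular identifiers. In bulk vesicles, fewer vesicles from a cell type and less miR-21 per vesicle cannot be told apart.

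In all seasons miR-21 was among the most abundant miRNAs of FF-EVs, ranking between 1 and 7 in each library. It received 1622 to 7589 reads per library and 3.36% to 21.8% of the reads assigned to miRNAs. The largest share was that of SUM_3, 21.8% (interval 21.3% to 22.3%), where it ranked 1, and the smallest that of SOV_4, 3.36% (interval 3.20% to 3.52%). Counting error was small against these differences, with a coefficient of variation of 1.15% to 2.48% per library.

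In SAN, miR-21 stood at 88255 CPM in SAN_1, 54171 in SAN_2, 49181 in SAN_3 and 93044 in SAN_4. SAN_1 and SAN_4 lay above SAN_2 and SAN_3, and the season mean was 71163 ± 22678 CPM (SD, n = 4). In SOV, the values were 170946 CPM in SOV_1, 125607 in SOV_2, 112470.4 in SOV_3 and 34455 in SOV_4. Of these libraries, 3 lay above every SAN library and SOV_4 lay below every one, for a mean of 110869.8 ± 56769 CPM (SD, n = 4).

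In SUM, miR-21 stood at 36824 CPM in SUM_1, 109996 in SUM_2, 210821 in SUM_3 and 31320.0 in SUM_4. SUM thus held both the highest and the lowest library of the series, and its mean was 97240.3 ± 83783 CPM (SD, n = 4). In FOV, the values were 52610.2 CPM in FOV_2, 55419.6 in FOV_3 and 39913 in FOV_4, with a mean of 49314 ± 8262 CPM (SD, n = 3). The left-out FOV_1 had 135253 CPM, above the other FOV libraries, and with it the season mean was 70799 ± 43496 CPM (SD, n = 4).

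**Figure D1:**
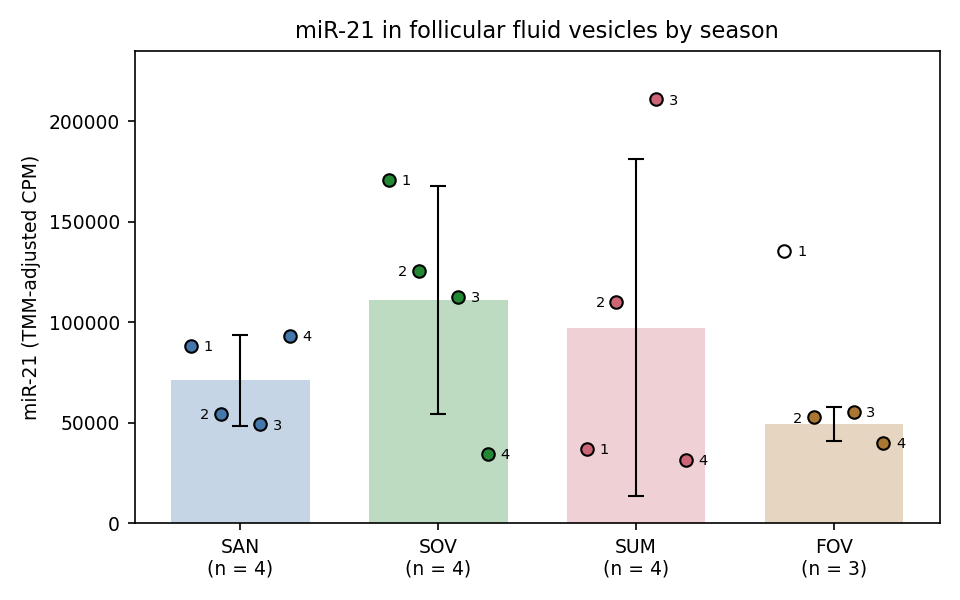
MiR-21 in TMM-adjusted CPM (vertical axis) for each library, by season. Bars are season means, error bars are SD, digits are replicate numbers and the open circle is FOV_1, which is in neither the mean nor the SD. SUM spans the whole range from 31320.0 to 210821 CPM, while FOV_2, FOV_3 and FOV_4 lie between 39913 and 55419.6 CPM.

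By season mean the order was SOV, SUM, SAN and FOV, and neighbours in this order overlapped in every case. MiR-21 ranked 4 by season mean in SAN, below miR-143 (157345 ± 21462 CPM, SD, n = 4) and above miR-10b (34703 ± 6574 CPM, SD, n = 4). It ranked 4 in SOV, between miR-148a (126497 ± 90329 CPM) and miR-26a (40486 ± 3362 CPM), and 2 in SUM, between miR-148a (166685 ± 42352 CPM) and miR-99a (79999 ± 48934 CPM). In FOV it ranked 5, between miR-192 (61686 ± 59724 CPM, SD, n = 3) and miR-100 (35233 ± 13787 CPM). These levels compare reads of mature miRNAs of nearly the same length, and ligation of adapters can favour one sequence over another.

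Whether the season changed miR-21 was asked with limma on log2(CPM + 1), fitted to 15 libraries and to the 282 miRNAs that exceeded 10 CPM on average in any season. A call needed a Benjamini-Hochberg adjusted p under 0.05 and a fold change (FC) of at least 2. MiR-21 was called in none of the 6 pairs of seasons. The largest difference was SOV vs. FOV, with a log2 FC of 0.97 (SE 0.60, 95% interval −0.30 to 2.23, unadjusted p = 0.125, adjusted p = 0.326). In that comparison 2.84% of the 282 miRNAs were called. For SUM vs. FOV the log2 FC was 0.56 (SE 0.60, interval −0.71 to 1.82, adjusted p = 0.730), beside 3.55% called.

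No comparison of the anovulatory with an ovulatory season passed the test. SAN vs. SOV gave a log2 FC of −0.48 (SE 0.56, interval −1.65 to 0.69, adjusted p = 0.790), beside 0% called. In that pair limma called 0 of 282 miRNAs with 31 at an unadjusted p under 0.05, edgeR called 0 and DESeq2 called 1. SAN vs. SUM gave −0.07 (SE 0.56, interval −1.24 to 1.10, adjusted p = 0.978), beside 9.57% called, and SAN vs. FOV gave 0.49 (SE 0.60, interval −0.78 to 1.75, adjusted p = 0.716), beside 0.709% called. Against the mean of the 3 ovulatory seasons, SAN differed by −0.02 (SE 0.46, interval −0.99 to 0.95, adjusted p = 0.978), beside 0.355% called. These intervals still hold a 2-fold difference in SAN vs. SOV, SAN vs. SUM and SAN vs. FOV, so the data do not show that the seasons are alike.

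Spring and summer, the pair with the most called miRNAs (17.7%), gave a log2 FC of miR-21 of 0.41 for SOV vs. SUM (SE 0.56, interval −0.76 to 1.58, adjusted p = 0.630). The moderated F test over all 4 seasons gave an adjusted p of 0.592, and 13.8% of the miRNAs passed it. Exact two-sided permutation tests of the 6 pairs gave p between 0.229 and 0.971, and adjusted over the 6 pairs 0.857 to 0.971. The smallest p that such a test can give is 0.0286 for 4 against 4 libraries and 0.0571 for 4 against 3. Over all 282 miRNAs the median log2 FC lay between −0.60 and 0.22 in these comparisons, −0.60 being that of SOV vs. FOV and 0.22 that of SAN vs. SOV.

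Single libraries carried part of these differences. Without SOV_4, SOV vs. FOV reached a log2 FC of 1.46 (unadjusted p = 0.0186, adjusted p = 0.149 by limma), and with FOV_1 kept it was 0.60. Without SUM_3, SUM vs. FOV came to 0.04 and SOV vs. SUM to 0.93 (adjusted p = 0.219 by limma). SOV vs. SUM was 0.09 without SUM_1 and 0.01 without SUM_4, and SUM vs. FOV 0.88 and 0.96 likewise. On the recovered reads, edgeR gave 1.27 for SOV vs. FOV (unadjusted p = 0.0428, adjusted p = 0.260) and DESeq2 gave 1.55 (unadjusted p = 0.0182, adjusted p = 0.127). SUM vs. FOV was 1.25 by edgeR (unadjusted p = 0.0461, adjusted p = 0.241) and 1.16 by DESeq2 (unadjusted p = 0.0784, adjusted p = 0.405). SAN vs. SUM was −0.74 by edgeR and −0.53 by DESeq2, SAN vs. SOV −0.76 and −0.93, and SOV vs. SUM 0.02 and 0.40 in the same order, with adjusted p of 0.319 or more. MiR-21 was called in none of them.

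**Figure D2:**
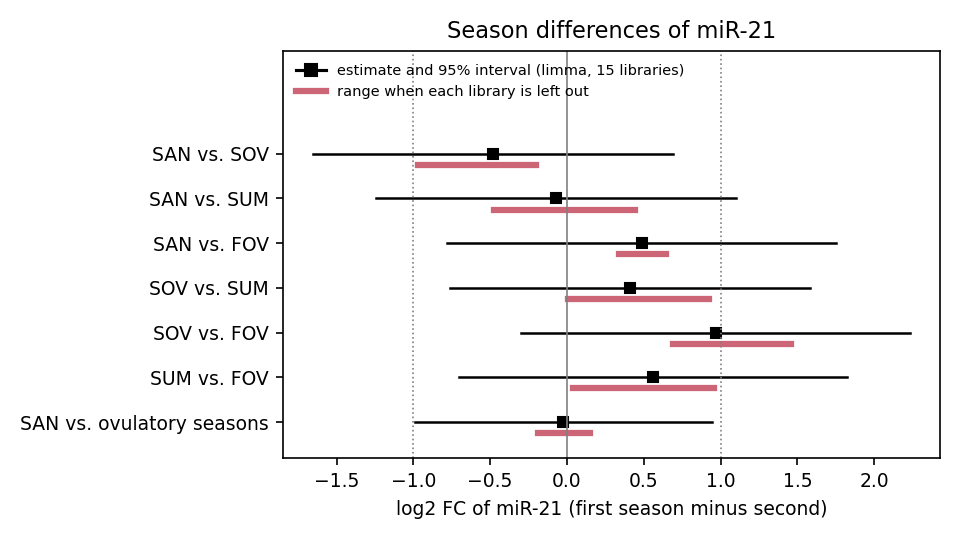
Log2 FC of miR-21 (horizontal axis, first season minus second) for the 6 pairs of seasons and for SAN against the mean of the ovulatory seasons. Black squares and lines are limma estimates with 95% intervals over 15 libraries, red lines the range of the estimate when each library is left out in turn, and dotted lines mark a 2-fold difference. Every interval crosses 0, and the estimate farthest from 0 is that of SOV vs. FOV, 0.97.

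The spread of miR-21 lay within seasons more than between them. Season accounted for 15.2% of the variance of its log2 value, where the median of the 139 miRNAs that averaged more than 100 CPM was 44.2%, and 10 of the 139 had a lower share. The SD of log2 values was 0.25 in FOV, 0.47 in SAN, 1.01 in SOV and 1.31 in SUM. In linear terms the highest library exceeded the lowest 6.73-fold in SUM, 4.96-fold in SOV, 1.89-fold in SAN and 1.39-fold in FOV without FOV_1 (3.39-fold with it).

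Set beside the other miRNAs, miR-21 was one of the more variable abundant ones. Its pooled within-season SD was 0.91 against a median of 0.82 over the 139, and 81 of them were below it. Among the 19 miRNAs with a mean above 10000 CPM, miR-21 included, the median was 0.49, and 15 of the 19 were below it. By season, 105 of the 139 had a smaller SD than miR-21 in SUM, 102 in SOV, 35 in SAN and 21 in FOV, and the medians of these seasons were 0.66, 0.64, 0.64 and 0.64. The difference of spread between seasons was not tested.

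Library depth and miR-21 had a negative correlation within seasons, which passed 0.05 by Pearson r and not by rank. With each value centred on its season mean, Pearson r between log2 miR-21 and log2 reads was −0.57 (exact permutation p = 0.0387, n = 15) and Spearman rho −0.38 (exact permutation p = 0.179). Without SOV_4 and SUM_4, whose centred miR-21 lies farthest from the median of the centred values, r was −0.62 (exact permutation p = 0.133). SUM_3, which lies farthest from its own season mean (1.55 above it in log2), stayed in wherever these libraries were left out together. In SUM the libraries with the least miR-21, SUM_1 and SUM_4, had 105466 and 110062 reads, and SUM_3, with the most, had 27131. SOV_4 does not follow this order, with 48306 reads against 41224 to 55086 in the season. Nor does SAN_4, with 94216 reads against 36328 to 55881 and the most miR-21 of SAN. FOV_4 does, with 112146 reads and the least miR-21 of FOV. The part of depth in the spread of miR-21 was not tested.

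Which miRNAs moved with or against miR-21 was asked within seasons, so that a season difference of another miRNA could not enter. Each of the other 281 miRNAs was correlated with miR-21 over the 15 libraries, on log2(CPM + 1) centred on the season mean, with an exact two-sided permutation test that rearranged the libraries within their seasons and an adjustment over the 281. None passed an adjusted p of 0.05 in either direction (0% of 281), and 28 had an unadjusted p under 0.05 (9.96%), 9 with positive and 19 with negative r. By Spearman rho none passed either, and 32 were under 0.05 unadjusted (11.4%). R was negative for 184 and positive for 97 of the 281, with a median of −0.17. With TMM without the miR-21 reads, r was negative for 161 and positive for 120, and with median-of-ratios scaling for 160 and 121. All values of a library share its scaling, so these correlations are not independent of each other. What follows describes the 8 highest and 8 lowest r among the miRNAs with a mean above 100 CPM.

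**Figure D3:**
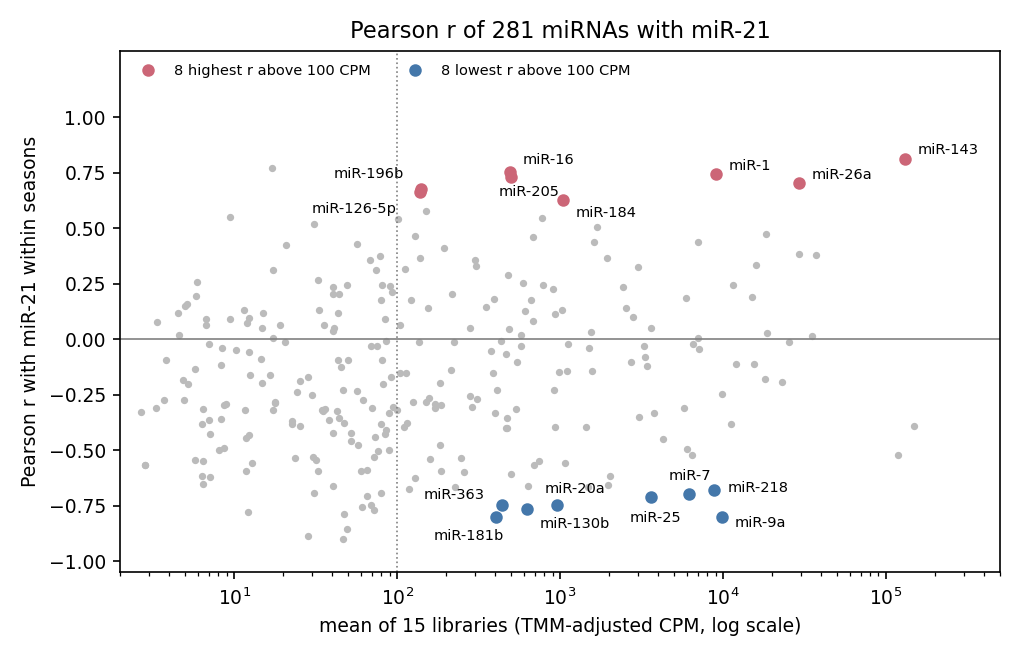
Pearson r with miR-21 over 15 libraries centred on season means (vertical axis) against the mean level of each of 281 miRNAs (horizontal axis, TMM-adjusted CPM, log scale). Coloured points are the 8 highest and 8 lowest r to the right of the dotted line at 100 CPM, grey points all others. Of the coloured points the highest is miR-143 at 0.81 and the lowest are miR-181b and miR-9a at −0.80, none of which passed the adjusted threshold.

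MiR-143, a miRNA of smooth muscle and stromal cells that is transcribed with miR-145, had the highest r. It was 0.81 (exact permutation p = 0.00101, adjusted p = 0.122, rho 0.70), and 0.80 without SOV_4 and SUM_4 (exact permutation p = 0.0176). Leaving out 1 library at a time gave 0.70 to 0.87. In SOV, miR-143 stood at 289954 CPM in SOV_1, 204141 in SOV_2, 210111 in SOV_3 and 166797 in SOV_4, so that SOV_1 was highest and SOV_4 lowest for both miRNAs. In SUM it stood at 10996 CPM in SUM_1, 17569 in SUM_2, 30275 in SUM_3 and 10416 in SUM_4, the same order of libraries as for miR-21. In SAN the orders differed, with 180174 CPM in SAN_1, 171124 in SAN_2, 138473 in SAN_3 and 139608 in SAN_4. FOV held 161409 CPM in FOV_2, 152331 in FOV_3 and 79699.6 in FOV_4, the last being lowest for both.

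The correlation with miR-143 was lower across seasons than within them. Pooled over the 15 libraries without centring, r was 0.25 (permutation p = 0.368). MiR-143 was lower in SUM, with a log2 FC of 3.76 for SOV vs. SUM (adjusted p = 1.54e-06) and of 3.31 for SAN vs. SUM (adjusted p = 1.05e-05) by limma. The ratio of miR-21 to miR-143 reads, which needs no scaling of libraries, was highest in SUM. There it was 3.01 to 6.96, in SAN 0.317 to 0.666, in SOV 0.207 to 0.615 and in FOV 0.326 to 0.501. SUM did not overlap the other seasons, and those overlapped each other. The ratio was chosen after the values were seen, and it is given without a test. Since miR-143 was itself lower in SUM, the ratio does not measure a season difference of miR-21. By limma the log2 FC of miR-21 was −0.07 in SAN vs. SUM and 0.41 in SOV vs. SUM.

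**Figure D4:**
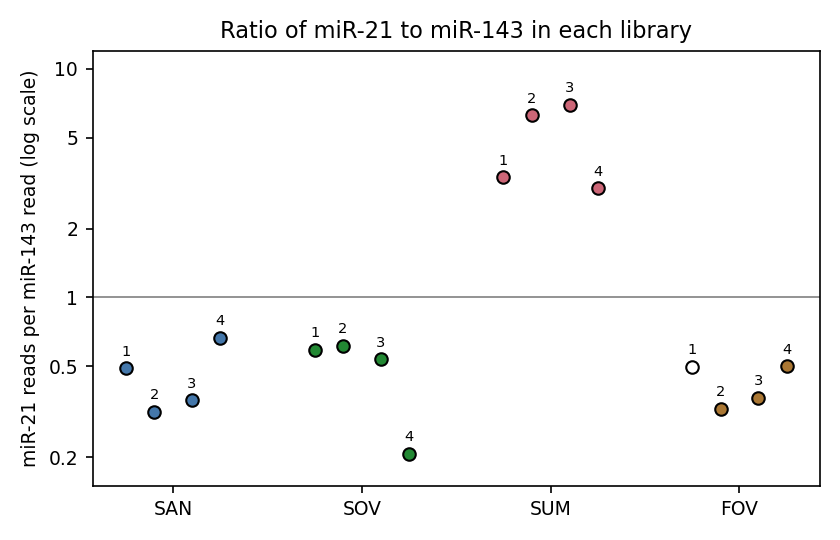
Reads of miR-21 per read of miR-143 in each library (vertical axis, log scale), by season, with replicate numbers at the points and FOV_1 as the open circle. The 4 SUM libraries lie between 3.01 and 6.96, and all other libraries lie below the line at 1 where reads of both are equal.

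MiR-26a, which restrains growth in many tissues and targets EZH2, had an r of 0.70 (exact permutation p = 0.00182, adjusted p = 0.122, rho 0.72). Without SOV_4 and SUM_4 its r was 0.69 (exact permutation p = 0.0123). Its levels ran over a narrow range, from 36452 CPM in SOV_4 to 44608 in SOV_1 and from 12829 in SUM_4 to 23070 in SUM_2. In both seasons the libraries lowest in miR-21 were lowest in miR-26a. Leaving out 1 library at a time gave r between 0.63 and 0.82.

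MiR-1, the heart and skeletal muscle miRNA, had an r of 0.75 (exact permutation p = 0.000482, adjusted p = 0.122, rho 0.70). Without SOV_4 and SUM_4 its r was also 0.75 (exact permutation p = 0.0419). Leaving out 1 library at a time gave 0.58 to 0.85. It stood at 593 CPM in SUM_4, 991 in SUM_1, 1597 in SUM_2 and 14461 in SUM_3, again the order of miR-21. In SAN it was 48382 CPM in SAN_1 and 3364 to 6130 in the other libraries. With FOV_1 kept, miR-1 was the 1 miRNA that passed (r 0.75, exact permutation p adjusted over the 281 of 0.0339), which is 0.356% of those tested.

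MiR-16, which targets BCL2 and cell cycle genes, had an r of 0.75 (exact permutation p = 0.00248, adjusted p = 0.122, rho 0.57). Without SOV_4 and SUM_4 its r was 0.59 (exact permutation p = 0.0511). With 1 library left out at a time, r was 0.67 to 0.83. MiR-16 was highest in SUM_3 with 819 CPM and lowest in SAN_3 with 236. Its seed, AGCAGCA, is shared with 5 other miRNAs tested, and these did not have such values. R was −0.05 for miR-195, −0.28 for miR-15a, −0.31 for miR-15b, −0.27 for miR-497 and 0.05 for miR-424.

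The other positive values were those of miR-205, an epithelial miRNA (r 0.73, adjusted p = 0.350), miR-196b, which lies among the HOX genes (0.68, adjusted p = 0.436), miR-126-5p, from an intron of the endothelial gene EGFL7 (0.66, adjusted p = 0.504), and miR-184, best known from the lens and cornea (0.63, adjusted p = 0.350), each by the exact permutation test. Without SUM_3, r fell to 0.42 for miR-126-5p and 0.40 for miR-184. MiR-205 ran from 0 reads in SOV_4, and 1 in SAN_1 and in SOV_3, to 1710 CPM (48 reads) in SUM_3. In the 15 fitted libraries miR-126-5p had only 3 to 14 reads and miR-196b 1 to 15. MiR-184 was 8370 CPM in SUM_3 against 949 to 1745 in the other SUM libraries. Relatives with the same seed again had other values. R was −0.09 for miR-196a beside miR-196b, and 0.13 for the muscle miRNA miR-206 beside miR-1.

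On the negative side stood miR-9a, the horse form of the neural miRNA miR-9. Its r was −0.80 (exact permutation p = 0.0301, adjusted p = 0.367, rho −0.81). Without SOV_4 and SUM_4 its r was −0.65 (exact permutation p = 0.276). In SUM it stood at 19711 CPM in SUM_1, 177 in SUM_2, 249 in SUM_3 and 12702 in SUM_4. In SOV it was 23218 CPM in SOV_4 and 627 to 2592 in the other libraries. The 3 libraries with the least miR-21 of the series were thus those with the most miR-9a in their seasons. In SAN the pattern was less clear, with 27188 CPM in SAN_1, 17563 in SAN_2, 14267 in SAN_3 and 1704 in SAN_4, where SAN_1 had much of both. In FOV it was 11324 CPM in FOV_2, 12521 in FOV_3 and 4371 in FOV_4, the same order as for miR-21. The left-out FOV_1 had 603 CPM of miR-9a and more miR-21 than these.

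**Figure D5:**
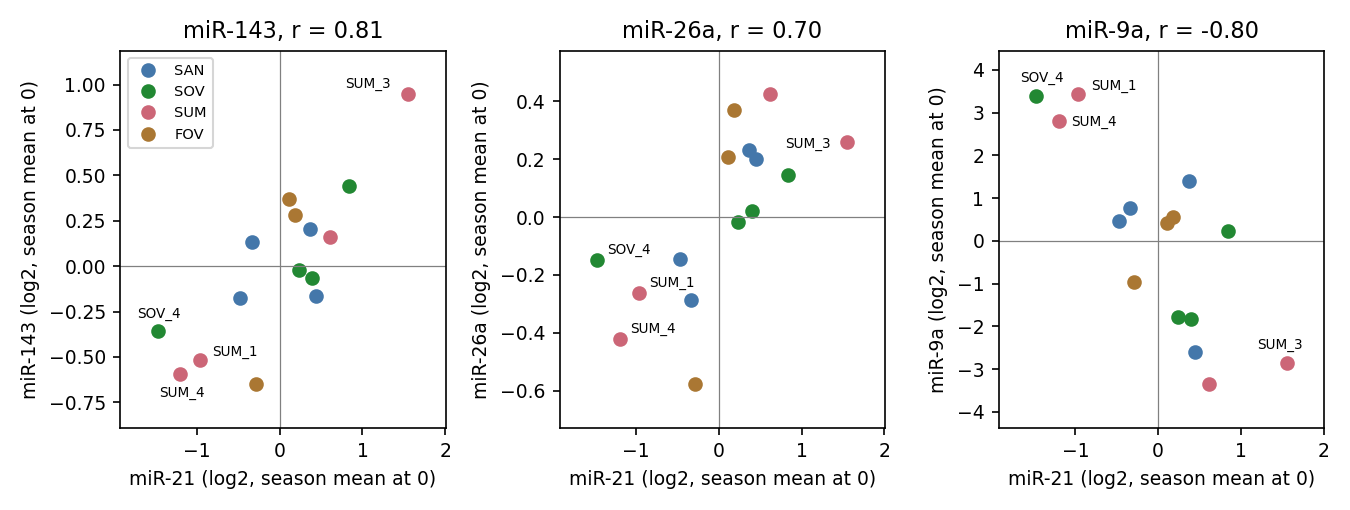
Log2(CPM + 1) of miR-143, miR-26a and miR-9a (vertical axes) against that of miR-21 (horizontal axes), each with its season mean set to 0, for 15 libraries coloured by season. SOV_4, SUM_1 and SUM_4 lie low in miR-21, miR-143 and miR-26a and high in miR-9a, with r of 0.81, 0.70 and −0.80 in the 3 panels.

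MiR-181b, a regulator of lymphocyte development, also had an r of −0.80 (exact permutation p = 0.0248, adjusted p = 0.350, rho −0.80). Without SOV_4 and SUM_4 its r was −0.74 (exact permutation p = 0.111). It stood at 912 CPM in SUM_1 and 720 in SUM_4 against 104 (7 reads) in SUM_2 and 107 (3 reads) in SUM_3. MiR-181a, which has the same seed and is made from the same transcripts, had an r of 0.03. Neither value passed an adjusted threshold, and the difference between both relatives was not tested.

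The remaining negative values came mostly from relatives of a few seed families. MiR-130b had an r of −0.76 (exact permutation p = 0.00967, adjusted p = 0.272), and the others with its seed AGTGCAA had −0.77 (miR-130a), −0.76 (miR-454) and −0.65 (miR-301b-3p, 7 reads in all). With the seed ATTGCAC, miR-363 had −0.75 (adjusted p = 0.462, exact permutation), miR-25 −0.71 (exact permutation p = 0.00238, adjusted p = 0.122) and miR-92a −0.52, while miR-32 had −0.03 and miR-92b 0.02. With the seed AAAGTGC, miR-20a had −0.75 (adjusted p = 0.449, exact permutation), miR-20b −0.79, miR-17 −0.66, miR-93 −0.56 and miR-106b −0.30. The last 2 seeds are those of the miR-17-92 cluster and its copies, which drive proliferation, so many of these miRNAs are cut from shared transcripts and are not separate observations.

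Levels of these miRNAs rest on the same libraries. MiR-130b was 850 CPM (40 reads) in SOV_4 and 0 to 20.8 (0 or 1 read) in the other SOV libraries. MiR-20a was 5642 CPM in SUM_1 and 3788 in SUM_4 against 266 in SUM_2 and 214 in SUM_3. MiR-25 was 10083 CPM in SUM_1 and 8550 in SUM_4 against 4496 in SUM_2 and 2956 in SUM_3. Without SOV_4 and SUM_4 its r was −0.86 (exact permutation p = 0.00193). The neuroendocrine miR-7 (r −0.70, adjusted p = 0.564, exact permutation) and miR-218, from the SLIT genes (r −0.68, adjusted p = 0.618, exact permutation), had 25436 CPM or more in SUM_1 and SUM_4 and 1353 or less in SUM_2 and SUM_3.

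Pooled over the 15 libraries without centring on the season, 8 miRNAs passed an adjusted p of 0.05, all of them against miR-21 (2.85% of 281), by a permutation test with 100000 resamples. They were miR-338-5p (r −0.85, adjusted p = 0.0140), miR-499-5p (−0.84, adjusted p = 0.0112), miR-135a (−0.81, adjusted p = 0.0365), miR-20b (−0.80, adjusted p = 0.0407), miR-9a (−0.77), miR-181b (−0.77), miR-363 (−0.76) and miR-454 (−0.72), the last 4 with an adjusted p of 0.0478. MiR-338-5p, miR-499-5p, miR-135a, miR-20b and miR-454 have means of 28.5 to 60.7 CPM, which is a few reads per library. Season differences enter these pooled values, and the 8 were not called within seasons.

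Granulosa miRNAs had no common direction with miR-21. Of 15 names tied to granulosa cells in mouse, pig, cow or human work, 13 matched a row and all 13 had reads, though miR-212, miR-503 and miR-383 had only 6, 7 and 15 in all. Besides miR-21 none of the 12 was called with or against it. R was positive for 4 of the 12 and the median was −0.09, beside −0.17 over all 281. MiR-132, which is induced with miR-21 by LH in mouse granulosa cells, had a mean of 183 CPM and an r of −0.47 (adjusted p = 0.618, exact permutation), and miR-212, the third of that group, −0.02. MiR-22, which lowers oestradiol output in mouse granulosa cells, had an r of 0.01, and let-7g −0.19.

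Of the 13 granulosa miRNAs, miR-145, miR-22 and miR-92a were called in at least 1 pair of seasons. By limma, miR-145 was higher in SAN than in SUM (log2 FC 2.95, adjusted p = 1.31e-05) and miR-22 lower (−2.24, adjusted p = 0.0189), which makes 1 of 13 members in each direction beside 5.32% of all miRNAs higher and 4.26% lower in SAN vs. SUM. In SOV vs. SUM, miR-145 was higher in SOV (3.23, adjusted p = 3.36e-06) and miR-22 (−3.36, adjusted p = 0.000301) and miR-92a (−1.49, adjusted p = 0.00123) lower, which makes 1 of 13 higher beside 5.67% and 2 of 13 lower beside 12.1%. In SOV vs. FOV, miR-92a was lower in SOV (−1.64, adjusted p = 0.00850), and in SUM vs. FOV, miR-145 was lower in SUM (−2.78, adjusted p = 9.10e-05), which makes 1 of 13 lower in each beside 2.84% of all miRNAs. SAN vs. SOV and SAN vs. FOV held no called member.

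Of the 16 miRNAs, 2 were called in SAN vs. SUM beside 9.57% of all miRNAs, 5 in SOV vs. SUM beside 17.7%, and 2 in SUM vs. FOV beside 3.55%. By limma, miR-184 was higher in SUM than in SAN (SAN vs. SUM log2 FC −2.68), SOV (SOV vs. SUM −3.06) and FOV (SUM vs. FOV 4.61). In SOV vs. SUM, miR-26a (1.23, adjusted p = 0.00832) and miR-196b (3.07, adjusted p = 0.0199) were higher in SOV and miR-25 was lower (−1.90, adjusted p = 0.00657). MiR-143 was lower in SUM than in FOV (−2.99, adjusted p = 9.10e-05). The other 11 of the 16 were called in no pair of seasons.

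Lists of miRNAs known from other cell types were summed beside miR-21 in each library. All rows of these lists had reads, so no marker was at 0 in the series, and some are also expressed outside the tissue that names their list. The list of 5 neural miRNAs, miR-9a, miR-124, miR-128, miR-7 and miR-218, had negative r with miR-21 for 5 of 5 and a median of −0.70, beside 184 negative of 281 miRNAs and a median of −0.17, and no member was called. In SUM its sum was 19091 to 138730 CPM, in FOV 30523 to 35890 (8386 in the left-out FOV_1), in SAN 10961 to 36392 and in SOV 7216 to 30611. By library it was 138730 CPM in SUM_1 and 100414 in SUM_4 against 19595 in SUM_2 and 19091 in SUM_3, and in SOV 30611 in SOV_4 against 7216 to 8115 in the others. In SAN and FOV the sum did not run against miR-21 throughout. It was 36392 CPM in SAN_1, where miR-21 was high, and 10961 in SAN_4, where miR-21 was highest. In FOV it was 35890 CPM in FOV_3, 32794 in FOV_2 and 30523 in FOV_4, the same order as for miR-21. The part of this list in the level of miR-21 was not tested.

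The other lists stood as follows. Epithelial miRNAs of the miR-200 family had positive r for 4 of 5 (median 0.46), and their sum was 934.7 CPM in SOV_4 and 6732 in SUM_3, the lowest and highest of those seasons. In SAN and FOV the sum did not follow miR-21. It was 1211 CPM in SAN_1, where miR-21 was high, 5983 in SAN_4, where miR-21 was highest, and 7506 in SAN_3, where miR-21 was lowest. In FOV it was 4564 CPM in FOV_4, lowest in miR-21, against 3488 in FOV_2 and 2634 in FOV_3. Both endothelial rows, miR-126-3p and miR-126-5p, had positive r (median 0.55), as did 4 of 4 erythrocyte rows (median 0.33). Muscle miRNAs had positive r for 3 of 4 (median 0.25), mesenchymal for 4 of 6 (median 0.14), and miR-122 of liver −0.31. Leukocyte miRNAs, from cells that make much miR-21, had positive r for 3 of 6 (median 0.09). In FOV their sum was 5937 to 6817 CPM (3161 in the left-out FOV_1), in SUM 2697 to 6376, in SOV 1218 to 4567 and in SAN 1704 to 2718. None of these lists held a miRNA called with or against miR-21 within seasons.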

How the data were processed

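Small RNA of FF-EVs was sequenced by the authors in 16 libraries. The deposited values are a signal, TMM-adjusted CPM per miRNA, which the study describes as made in CLC Genomics Workbench from trimmed reads annotated against miRBase and EquCab3.0. Per the labels the tools were bcl2fastq, Bowtie2 2.2.2 and DESeq2, and which description applies was not settled. The values held whole reads at 1 factor per library (tolerance 1e-06 reads), so reads were recovered and depth is known: 27131 to 112146 reads per library. Totals count only reads assigned to miRNAs.

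Groups and replicate numbers came from the sample titles. R 4.3.3 with limma 3.58.1 (intensity trend, log2(CPM + 1), all seasons in 1 fit), edgeR 4.0.16 and DESeq2 1.42.0 on the recovered reads, and Python 3.11.15 with scipy 1.17.1 and matplotlib 3.10.9 were used. Two-sided tests were used, with Benjamini-Hochberg adjustment over all miRNAs of a comparison. Correlations used all 82944 arrangements of libraries within seasons, and 100000 resamples where not centred. Both procedures were tested on simulated data. Named were miR-21, miRNAs sharing its seed, the 8 highest and 8 lowest r above 100 CPM, its neighbours by season mean, and members of the granulosa and marker lists above 100 CPM. Members below that level (miR-212, miR-383, miR-503, miR-124), seed relatives of the 16, and the 8 miRNAs that passed without centring lie outside that rule, and their values were known when they were picked. MiR-21, the lists and the tests were chosen with earlier results of these data known.

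No pairing by replicate number was seen: deviations from season means of same-numbered libraries correlated at −0.27 to 0.27 over 21 pairs (median 0.01). For libraries of other numbers it was −0.18 to 0.24 over 63 pairs (median −0.003). Such correlations of pools cannot show whether same-numbered libraries shared mares. The libraries are pools of separate mares' fluids, and p values measure the spread between these pools. Alternatives were FOV_1 kept, other pseudocounts, filters and scalings, TMM without the miR-21 reads, the compared seasons fitted alone, a replicate block, edgeR, DESeq2, rank correlation, no centring, and each library left out. Vesicle size, protein and target prediction were not analysed here.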

Additional observations from a re-analysis of the deposited data

Results flagged for a closer look

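In 17 miRNAs (miR-21 and the 16 with the highest and lowest r), each season's 4 libraries were searched for one that lay far from the other 3 by Dixon's ratio at its 95% critical value. Of 68 such groups 10 held one. Chance flags about 1 in 20 independent groups, but these share the same libraries and 16 of the miRNAs were chosen by r, which single libraries move, so the count of 10 was not compared with chance.

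MiR-21 itself stood out once, in FOV_1, the library the study set aside, with 135253 CPM against 39913 to 55419.6 in the other FOV libraries. FOV_1 also had 256 CPM of miR-126-5p against 112 to 136. SOV_4, the SOV library lowest in miR-21, had 23218 CPM of miR-9a against 627 to 2592, and 850 CPM of miR-130b against 0 to 20.8. SUM_3, highest in miR-21, had 14461 CPM of miR-1 against 593 to 1597, and 8370 CPM of miR-184 against 949 to 1745. SAN_1 had 48382 CPM of miR-1 against 3364 to 6130, and 30.3 CPM of miR-205 against 563 to 625. SOV_3 had 498 CPM of miR-184 against 191 to 215, and FOV_4 had 6080 CPM of miR-25 against 2355 to 2924. For FOV_4, which was in every fit, r of miR-25 with miR-21 stayed between −0.85 and −0.58 when any 1 library was left out.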

How the results depend on the processing

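MiR-21 passed the adjusted threshold in no pair of seasons under any alternative run. Leaving out 1 library at a time, its log2 FC by limma ran from −0.97 to −0.20 in SAN vs. SOV, 0.34 to 0.64 in SAN vs. FOV, 0.01 to 0.93 in SOV vs. SUM, 0.69 to 1.46 in SOV vs. FOV and 0.04 to 0.96 in SUM vs. FOV. The direction turned in SAN vs. SUM (−0.47 to 0.44) without SAN_2, SAN_3, SUM_2 or SUM_3, and in SAN against the ovulatory seasons (−0.19 to 0.15) when 1 of 8 libraries was left out: SAN_2, SAN_3, SOV_1, SOV_2, SOV_3, SUM_2, SUM_3 or FOV_3. Under the other alternatives no direction turned, and the ranges were −0.93 to −0.48, 0.12 to 0.63, 0.02 to 0.69, 0.60 to 1.55 and 0.19 to 1.25 in the same order, with −0.74 to −0.05 in SAN vs. SUM and −0.33 to −0.02 against the ovulatory seasons. The adjusted p of the F test ran from 0.235 to 0.807. DESeq2 gave no test over 4 seasons, and the compared seasons fitted alone gave none of the ovulatory seasons together.

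Within seasons no miRNA passed with or against miR-21, also without any 1 library (0 to 0), except that 1 passed with it when FOV_1 was kept, and 8 passed against it without centring. With a replicate block no call changed: SOV vs. FOV was 0.94 (adjusted p = 0.361 by limma) and the counts with and against miR-21 were 0 and 0. Among same-numbered pairs 3 of 21 correlated above 0.1, and 4 libraries correlated best with their own number. Depth limits the sparse miRNAs: 1 read was worth up to 35.6 CPM.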
